A study of Homo sapiens with 14 samples.

Results

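RNA sequencing compared day 11 cultures grown at a low concentration of CHIR99021 with human pluripotent stem cells of the same line. The comparison rests on the 2 libraries labelled Chir 0.7uM at day11 and the 2 labelled Human pluripotent stem cell, 4 of the 14 libraries in the series, chosen by those labels. All came from WA-09 (H9), an established line of human embryonic stem cells, so that 1 genetic background underlies every value. The day 11 cells (0.7 µM cells below) had been kept, per the labels' protocol, in N2/B27 medium with Sonic hedgehog protein (SHH C25II), LDN, SB431542 and 0.7 µM CHIR99021, with a Rock inhibitor at the start. From day 4 they stayed at 0.7 µM while parallel cultures were moved to 3, 5 or 7.5 µM. SHH, LDN and SB431542 were withdrawn on day 7, and from day 10 the medium of all arms held 3 µM CHIR99021 with BDNF, GDNF, TGFβ3, ascorbic acid and dibutyryl cAMP. The stem cells (hPSC below, labelled Day 0) grew on Vitronectin in Essential 8 medium and the labels name none of these agents for them. Medium, coating, agents and time therefore changed together between the groups, and their parts in any difference cannot be told apart. The other day 11 arms, 6 libraries, served to share the estimate of spread and, in the last comparison, as a second reference.

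Stem cells hold their state through a small circuit of transcription factors (POU5F1, SOX2, NANOG) fed by FGF and NODAL-type signals. LDN blocks BMP receptors and SB431542 blocks the receptors for NODAL and activin, a combination that turns stem cells into neural tissue. Sonic hedgehog directs the ventral midline of the neural tube to become floor plate, which then makes SHH itself and depends on the forkhead factor FOXA2. CHIR99021 inhibits the kinase GSK3 and so activates WNT signalling, which sets the position of neural cells from front to back. NKX2-1 marks the ventral forebrain and hypothalamus, and LMX1A together with FOXA2 the midbrain floor plate.

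The 3 genes that mark these states went with the labels. SHH (ENSG00000164690) had 284.5 and 52.6 CPM in the 0.7 µM libraries, against 0.0827 and 0.0363 CPM in hPSC, where CPM are each gene's share of the gene counts in the usual CPM unit, scaled by TMM (trimmed mean of M-values). NKX2-1 (ENSG00000136352) had 13.7 and 8.67 CPM in the 0.7 µM cells and no count in either hPSC library. POU5F1 (ENSG00000204531), the OCT4 gene, had 0.746 and 0.981 CPM in the 0.7 µM cells, against 412.4 and 474.0 CPM in hPSC. The groups did not overlap for any of the 3, and SHH was uneven within the 0.7 µM group. SHH was higher by 11.32 on the log2 scale (standard error 1.26, adjusted p = 0.00348, edgeR's quasi-likelihood test with Benjamini-Hochberg adjustment, as for every adjusted p below). POU5F1 was lower, with a log2 fold change of -8.98 (0.54, adjusted p = 0.00105). NKX2-1 was at least 218-fold higher, taking a floor of 3 counts over the hPSC group (adjusted p = 0.00637). POU5F1 passed in every fit that left out 1 of the 4 libraries. SHH did not pass without hPSC replicate 2 (10.93, adjusted p = 0.0544), and NKX2-1 did not pass without hPSC replicate 1 (adjusted p = 0.0577) or replicate 2 (0.0642).

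The libraries held 20.52 and 44.76 M gene counts in the 0.7 µM group and 32.29 and 25.06 M in hPSC. The 2 stem cell libraries were closer to each other (r = 0.9969 of log2 CPM across genes) than the 2 low-CHIR libraries (0.9584). Reads in no annotated gene came to 13.96 per 100 gene counts in 0.7 µM replicate 1 and 28.04 in replicate 2, against 26.66 and 29.32 in hPSC, and their part in the results was not tested. All day 11 replicate 1 libraries differed from the replicate 2 libraries in the same way, with correlations of 0.62 to 0.83 between arms. A second fit therefore took the replicate number as a block within day 11. It placed hPSC midway between the 2 replicate numbers and took their shared difference out of the spread. Its p-values so do not measure that difference, and calls kept under it are no separate support. Of 19672 genes tested, 2248 (11.4%) passed an adjusted p of 0.05, 1045 (5.31%) higher and 1203 (6.12%) lower in the 0.7 µM cells. With the block 9064 (46.1%) passed, 4139 (21%) higher and 4925 (25%) lower, and all 2248 kept their direction and call. The count was 1024 without 0.7 µM replicate 1, 258 without hPSC replicate 1 and 115 without hPSC replicate 2. Unless the block is named, "rose", "fell" and counts below refer to the fit without it. List counts below are to be read against the shares of all genes called in the same fit. Members and lists were chosen with earlier results of these data known, so the counts describe the lists and test nothing. The median log2 fold change of all genes was 0.04. The libraries of the 2 groups did not overlap for 59.1% of the genes, so that a lack of overlap alone says little. In bulk RNA, fewer cells of a type and less RNA per cell cannot be told apart.

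Most of the transcription factors that define stem cells fell. Of 19 listed, 18 were tested, 11 fell and 0 rose, against 6.12% of all genes lower, and the list's median log2 fold change was -4.48 (-4.04 with genes at 0 set to their bound). NANOG, partner of POU5F1 in the core circuit, had no count in either 0.7 µM library, against 13.6 and 24.6 CPM in hPSC, at least 397-fold lower (adjusted p = 0.0119). PRDM14, a repressor of differentiation, had 3 counts in the 0.7 µM group against 1195 in hPSC, a ratio of 405 in favour of hPSC (95% interval 138 to 1970, counting error only). ZSCAN10, a zinc finger factor of stem cells, stood at 0.746 and 0.334 CPM against 53.4 and 43.6 CPM in hPSC (-6.53, standard error 0.72, adjusted p = 0.00348). These genes were close to the lower limit of detection in both 0.7 µM libraries. DPPA4, a chromatin factor, fell but stayed abundant, with 58.5 and 104.0 CPM in the 0.7 µM cells against 1325.3 and 1538.2 CPM in hPSC (-4.14, 0.62, adjusted p = 0.00795). ZFP42, the stem cell marker REX1, had 0.796 and 4.7 CPM in the 0.7 µM cells and 122.5 and 144.6 CPM in hPSC (-5.58, 1.36, adjusted p = 0.0379). ETV4 (-5.25), an effector of FGF signalling, FOXH1 (-4.83), a partner of SMAD proteins under NODAL signals, VRTN (-3.93), and TFAP2C (-3.03), a factor of naive stem cells and germ cells, fell as well. FOXD3 had 1 count against 227 in hPSC, a ratio of 231 in favour of hPSC (interval 41 to 9160).

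Of the 7 tested factors that did not pass, SOX2, shared by stem cells and neural progenitors, had 202.8 and 442.4 CPM in the 0.7 µM cells against 266.3 and 207.7 CPM in hPSC (0.44, standard error 0.48, adjusted p = 0.59). Its groups overlapped. SALL4 (0.28, adjusted p = 0.899) was uneven between the 0.7 µM libraries, at 30.4 and 209.8 CPM against 106.7 and 91.7 CPM in hPSC. Replicate 2 lay above both stem cell libraries and replicate 1 below both. The others were ETV5 (-2.12), NR5A2 (-1.99), DPPA2 (-1.83), KLF4 (1.70) and DPPA3, which had no count in the 0.7 µM group and 25 in hPSC, at least 8.48-fold lower. UTF1 was too low to test, with 1 count against 20. With the block 15 fell and 1, KLF4, rose. Of the 11 calls, 8 held without either 0.7 µM library, 5 without hPSC replicate 1 and 3 without hPSC replicate 2.

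**Figure D1:**
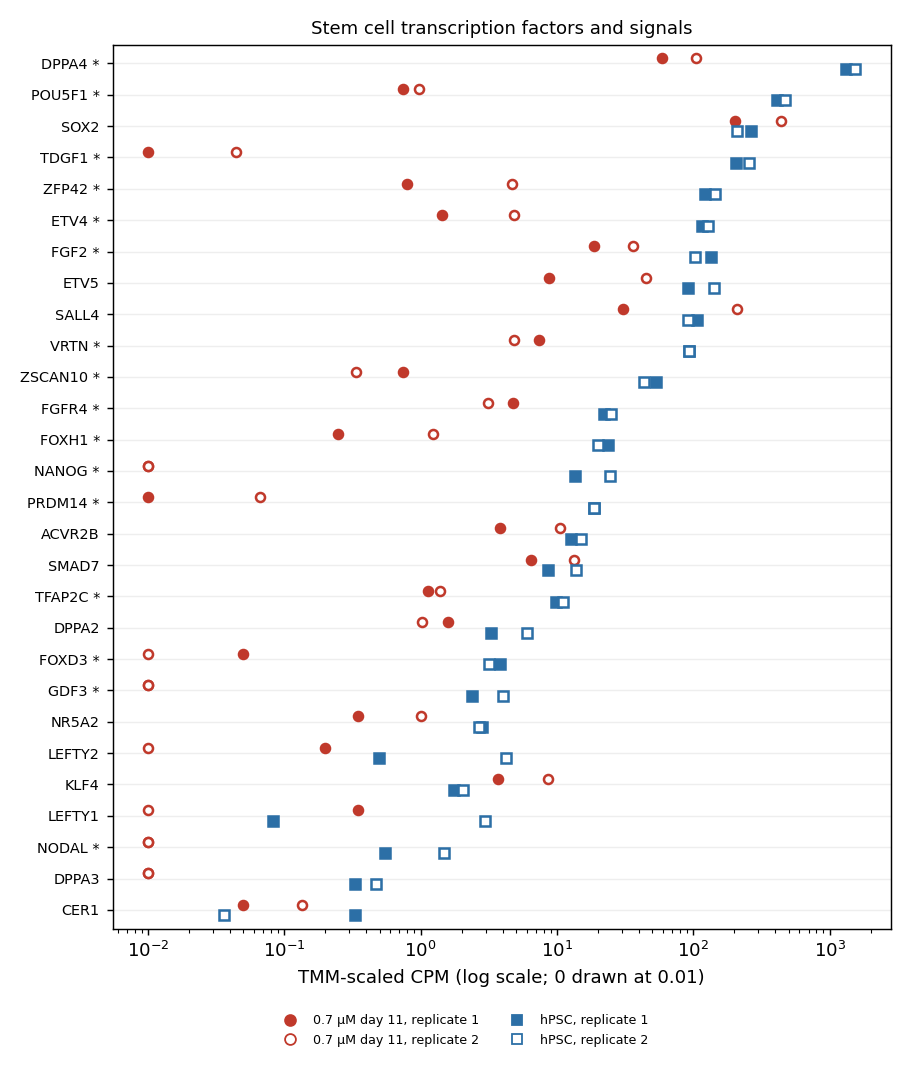
TMM-scaled CPM (log axis, 0 drawn at 0.01) of the tested stem cell transcription factors and NODAL and FGF signals, 1 row per gene; circles are the 0.7 µM day 11 libraries and squares the hPSC libraries, filled for replicate 1 and open for replicate 2, and an asterisk marks genes that passed. POU5F1 lies at 0.746 and 0.981 CPM in the 0.7 µM cells and at 412.4 and 474.0 CPM in hPSC, while the symbols of SOX2 overlap.

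The start of NANOG is shown because POU5F1 and SOX2 act on it in stem cells. The octamer bound by POU factors was searched as ATGCAAA on both strands of the RefSeq promoter windows (250 bases before to 50 after a gene's start, GRCh38.p14). It occurred in 4.46% of all 35116 windows. The NANOG window, chr12:7789152-7789451 on the plus strand, has 1 match at -120 from the start, on the minus strand, in capitals:
NANOG: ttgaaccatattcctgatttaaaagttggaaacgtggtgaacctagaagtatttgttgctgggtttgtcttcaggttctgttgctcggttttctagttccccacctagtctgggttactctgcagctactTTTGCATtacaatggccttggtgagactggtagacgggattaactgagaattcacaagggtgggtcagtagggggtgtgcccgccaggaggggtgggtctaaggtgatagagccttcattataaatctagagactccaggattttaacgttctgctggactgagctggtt
Among tested genes with a window, the letters occurred in 3.51% of those that rose and 4.24% of those that fell, against 2.99% of all. This window and the 3 further below were picked after the matches were seen, and a match is a description of the letters only.

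Signals that stem cells send to themselves fell with the factors. TDGF1, the NODAL co-receptor Cripto, had 0 and 0.0446 CPM in the 0.7 µM cells against 205.9 and 256.7 CPM in hPSC, or 2 counts against 14543, a ratio of 7400 in favour of hPSC (interval 2050 to 61100). NODAL itself (at least 20.7-fold lower) and the related ligand GDF3 (at least 66.5-fold lower) had no count in the 0.7 µM group. FGF2, the growth factor that maintains human stem cells, had 18.8 and 36.2 CPM against 134.6 and 103.2 CPM in hPSC (-2.11, standard error 0.45, adjusted p = 0.0251). Its level in the 0.7 µM cells was lower but clearly present. FGFR4, an FGF receptor, fell by 2.57 on the log2 scale. So 5 of 10 tested members fell and 0 rose, with a median of -2.95. The NODAL antagonists LEFTY1 (-3.32, adjusted p = 0.339) and LEFTY2 (-4.84, 0.0947), with CER1 (-0.91), SMAD7 (-0.17) and ACVR2B (-0.94), did not pass. FGF4 had at most 1 count per library. Of the 5 calls, 1 (TDGF1) held without 0.7 µM replicate 1 and without each of the hPSC libraries, and 2 held without 0.7 µM replicate 2. With the block 8 members fell and 0 rose.

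The RNA-binding, telomere and surface genes of stem cells gave 7 lower and 0 higher of 14 tested, median -3.03. L1TD1, an RNA-binding protein derived from a mobile element, had 2.89 and 2.76 CPM in the 0.7 µM cells against 823.6 and 448.1 CPM in hPSC (-7.81, standard error 0.61, adjusted p = 0.00182). ESRG, a long noncoding RNA of human stem cells, fell by 7.01, and THY1, the surface antigen CD90, by 5.92. The deubiquitinase USP44 (-3.99), the RNA polymerase III subunit POLR3G (-3.86), the telomere protein TERF1 (-2.88) and PODXL (-2.18), which carries the TRA-1-60 epitope, fell less. LIN28A, an RNA-binding protein that blocks let-7 maturation, stayed at 1130.2 and 1776.4 CPM in the 0.7 µM cells against 1200.3 and 1678.9 CPM in hPSC (0.01, standard error 0.37, adjusted p = 0.987). Its groups overlapped fully. With the block 13 members fell. Of the 7 calls, 5 held without 0.7 µM replicate 1, 7 without replicate 2, 2 without hPSC replicate 1 and 1 without hPSC replicate 2. Among 7 DNA methylation and TET enzymes, 1 fell, the de novo methyltransferase DNMT3B, with 49.2 and 172.2 CPM in the 0.7 µM cells against 859.5 and 860.8 CPM in hPSC (-2.96, adjusted p = 0.0323), a call lost without 0.7 µM replicate 1 or either hPSC library.

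Of 15 epithelial adhesion and polarity genes of stem cells 12 fell and 0 rose (median -4.68). ESRP1, a splicing factor that sets epithelial isoforms, had 0.0497 and 1.38 CPM in the 0.7 µM cells against 210.4 and 242.7 CPM in hPSC (-8.20, standard error 1.53, adjusted p = 0.0159). Its relative ESRP2 (-7.26), the tight junction proteins CLDN7 (-6.79), CLDN6 (-5.30) and CLDN10 (-3.67), the epithelial factor GRHL2 (-6.77), P-cadherin CDH3 (-5.90), MARVELD3 (-4.57), the protease ST14 (-4.01), RAB25 (-3.94) and EPCAM (-1.94) fell, and CRB3 had 1 count against 249. E-cadherin, CDH1, showed how far the 0.7 µM libraries could differ, with 0.746 CPM in replicate 1 and 32.4 in replicate 2, against 407.8 and 441.6 CPM in hPSC. Both lay below hPSC, yet CDH1 did not pass (-4.68, standard error 2.01, adjusted p = 0.175) except with the block (-6.11, adjusted p = 3.26e-06). N-cadherin CDH2, the neural cadherin, was higher in the 0.7 µM cells, with 286.2 and 437.6 CPM against 97.8 and 90.8 CPM in hPSC (1.94, 0.50, adjusted p = 0.0449), a call lost when any 1 of the 4 libraries was left out. Of the 12 epithelial calls, 8 held without 0.7 µM replicate 1, 12 without replicate 2, 5 without hPSC replicate 1 and 3 without hPSC replicate 2.

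Most of the floor plate programme rose. All 17 listed genes were tested, 13 rose and 0 fell, against 5.31% of all genes higher, and the median log2 fold change was 4.79. FOXA2, the forkhead factor at the head of the programme, had 215.6 and 72.3 CPM in the 0.7 µM cells against 0.496 and 0.109 CPM in hPSC (8.83, standard error 1.07, adjusted p = 0.00437). FOXA1, its close relative, had 103.3 and 54.7 CPM against 0.11 and 0.0363 CPM (9.93, 0.68, adjusted p = 0.00107). In both, as in SHH, 0.7 µM replicate 1 was the higher library. LMX1A, a homeobox factor of the midbrain floor plate, had 82.5 and 42.2 CPM against 0.0276 and 0.181 CPM (9.26, 0.82, adjusted p = 0.00217). Its relative LMX1B (4.42) rose too, with 14.1 and 2.88 CPM against 0.414 and 0.363 CPM. FERD3L, a bHLH factor of the floor plate, had 533 counts against 0, at least 175-fold higher.

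Secreted and surface proteins of the floor plate followed. CORIN, a protease used to sort floor plate cells, had 53.0 and 14.7 CPM in the 0.7 µM cells against 0.552 and 0.399 CPM in hPSC (6.13, standard error 0.98, adjusted p = 0.0097). SPON1, the matrix protein F-spondin, had 425.8 and 645.1 CPM against 9.27 and 8.74 CPM (5.89, 0.40, adjusted p = 0.00106). The axon guidance cue NTN1, netrin-1, had 308.8 and 79.1 CPM against 7.17 and 6.85 CPM (4.79, 0.70, adjusted p = 0.00749). SPON1 was the steadiest of these and ran higher in replicate 2, unlike CORIN and NTN1. The repellents SLIT1 (242 counts against 3, ratio 79.3, interval 26.8 to 387) and SLIT2 (2.58), the heparan sulfatase SULF2 (2.86) and CMTM8 (2.38) rose. SLIT2, SULF2 and CMTM8 were already expressed in hPSC, at 5.27 CPM or more. SLIT3 (1.30, adjusted p = 0.121), ALCAM (1.30, 0.091), SULF1 (-0.29, 0.61) and the BMP modulator BMPER (-2.18, 0.119) did not pass, and with the block SLIT3 and ALCAM passed as higher and BMPER as lower. Summed over the list, levels were 2213.0 and 1652.6 CPM in the 0.7 µM cells against 215.3 and 210.5 CPM in hPSC. Of the 13 calls, 12 held without 0.7 µM replicate 1, 13 without replicate 2, 6 without hPSC replicate 1 and 4 without hPSC replicate 2.

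**Figure D2:**
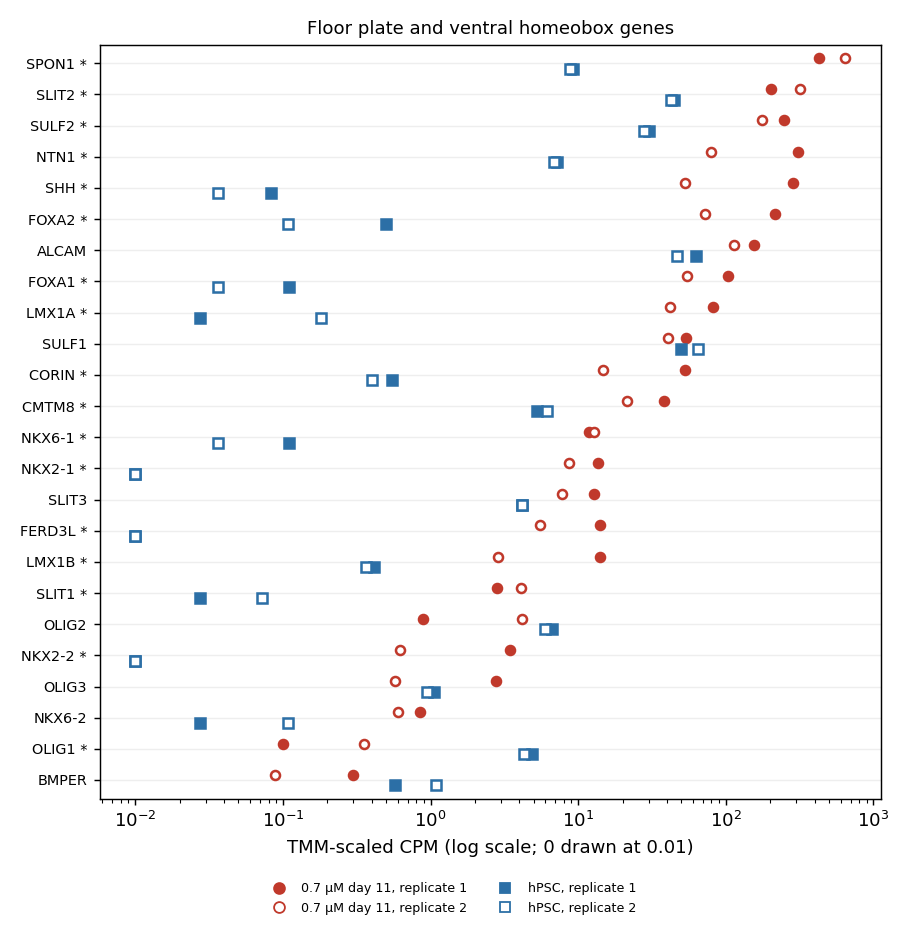
TMM-scaled CPM (log axis, 0 drawn at 0.01) of the tested floor plate and ventral homeobox genes, 1 row per gene; circles are the 0.7 µM day 11 libraries and squares the hPSC libraries, filled for replicate 1 and open for replicate 2, and an asterisk marks genes that passed. SHH, FOXA1, FOXA2 and LMX1A lie at 42.2 CPM or more in both 0.7 µM libraries and at 0.496 CPM or less in both hPSC libraries.

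LINC00261, a long noncoding RNA gene near FOXA2, rose with it, to 244.7 and 162.0 CPM in the 0.7 µM cells against 0.221 and 0.0725 CPM in hPSC (10.35, standard error 0.67, adjusted p = 0.00105). Its start is shown because forkhead factors were among the genes that rose most. The forkhead core, searched as TGTTTAC on both strands, occurred in 3.42% of all windows, and in 2.74% of those of genes that rose against 2.2% of those of all tested genes. The LINC00261 window, chr20:22578593-22578892 on the minus strand, has 1 match at -237, in capitals:
LINC00261: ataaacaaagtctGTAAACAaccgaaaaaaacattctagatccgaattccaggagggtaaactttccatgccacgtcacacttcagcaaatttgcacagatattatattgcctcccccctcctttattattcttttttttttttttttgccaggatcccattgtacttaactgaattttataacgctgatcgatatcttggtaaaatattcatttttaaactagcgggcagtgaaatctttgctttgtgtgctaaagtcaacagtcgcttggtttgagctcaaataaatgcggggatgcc
FOXA2 and LINC00261 both share exons with another annotated gene on the same strand (AL121722.1), so reads from the shared exons cannot be told apart.

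Within the hedgehog pathway the feedback receptors rose while most of the transduction genes did not pass. PTCH1, the SHH receptor and a direct target of the pathway, had 158.3 and 485.9 CPM in the 0.7 µM cells against 25.9 and 23.4 CPM in hPSC (3.71, standard error 0.63, adjusted p = 0.0116). HHIP, a decoy that binds SHH and is also a target, had 12.3 and 3.01 CPM against 0.11 and 0.0363 CPM (6.57, 0.95, adjusted p = 0.00714). The 2 differed in which 0.7 µM library was higher, replicate 2 for PTCH1 and replicate 1 for HHIP. GLI2, the main activator of the pathway, fell (-1.97, adjusted p = 0.0214), with 5.17 and 8.05 CPM against 28.1 and 23.8 CPM in hPSC. GLI1, a target used as a readout of the pathway, had 5.42 and 4.99 CPM in the 0.7 µM cells against 12.9 and 10.5 CPM in hPSC. It did not pass (-1.17, adjusted p = 0.267), though with the block it passed as lower (-1.12, adjusted p = 0.0399). SMO (0.87, 0.446), GLI3 (-1.26, 0.104), SUFU (-0.25) and the co-receptors GAS1 (-0.20), CDON (0.02) and BOC (0.63) did not pass either. Of these, GLI3 (-1.26, adjusted p = 0.00355) passed as lower and SMO (0.65, 0.0498) as higher with the block. In all 2 of 12 rose and 1 fell, median -0.07, against 5.31% of all genes higher and 6.12% lower. With the block 3 rose and 3 fell, near the shares of all genes in that fit (21% higher and 25% lower). The 2 rises held without either 0.7 µM library, GLI2 did not pass without 0.7 µM replicate 1, and none of the 3 passed without either hPSC library.

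The PTCH1 window is shown because GLI factors regulate this gene. The GLI site, searched as GGGTGGTC on both strands, occurred in 0.974% of all windows, and in 1.22% of those of genes that rose against 0.998% of those of all tested genes. The window, chr9:95509217-95509516 on the minus strand, has 1 match at -171, in capitals:
PTCH1: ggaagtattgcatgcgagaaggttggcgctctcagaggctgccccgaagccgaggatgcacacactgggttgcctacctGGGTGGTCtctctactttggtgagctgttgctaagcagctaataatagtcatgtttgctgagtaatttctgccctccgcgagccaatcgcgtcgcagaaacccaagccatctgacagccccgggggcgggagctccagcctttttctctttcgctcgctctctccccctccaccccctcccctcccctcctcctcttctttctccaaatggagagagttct

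Among the ventral homeobox and OLIG genes, 3 of 7 tested rose and 1 fell (median 3.38). NKX6-1, a factor of the ventral neural tube, had 11.9 and 12.9 CPM in the 0.7 µM cells against 0.11 and 0.0363 CPM in hPSC (7.27, standard error 0.66, adjusted p = 0.00227). NKX2-2, which lies next to the floor plate in the embryo, had 3.43 and 0.624 CPM against no count, at least 31.8-fold higher (adjusted p = 0.0209). OLIG1 fell (-4.22), with 0.0995 and 0.357 CPM against 4.88 and 4.32 CPM in hPSC. OLIG2, the motor neuron progenitor factor, did not pass (-1.31, adjusted p = 0.311), nor did OLIG3 (0.73) and NKX6-2 (3.38, adjusted p = 0.155). NKX2-4 and NKX2-8 were too low to test, with 4 and 10 counts against 0. Of the 4 calls, 2 held without 0.7 µM replicate 1, 4 without replicate 2, and 1 (NKX6-1) without either hPSC library. NKX2-1 and NKX2-2 overlap antisense or neighbouring genes, and without strand information their reads cannot be told apart.

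Of 18 anterior neural plate, eye and hypothalamus genes 11 were tested, of which 1 (NKX2-1) rose and 1 (HMX2) fell, against 5.31% of all genes higher and 6.12% lower, with a median of 0.70. SIX3, a factor of the anterior neural plate, had 0.497 and 0.334 CPM in the 0.7 µM cells against 1.1 and 0.29 CPM in hPSC (-0.77, adjusted p = 0.551). SIX6 had 0.249 and 0.0223 CPM against 1.49 and 3.3 CPM (-4.32, adjusted p = 0.0784). RAX, which specifies the eye field and hypothalamus, had 4 counts against 2 in hPSC and was not tested. All 3 were at or below 0.497 CPM in the 0.7 µM cells. HMX2 had 1 count against 616 in hPSC, a ratio of 627 in favour of hPSC (interval 112 to 24800). FEZF2, a forebrain factor, had 3.23 and 1.52 CPM against 0.276 and 0.0363 CPM (3.83, adjusted p = 0.124), with no overlap between groups. VAX2 (57 counts against 0, at least 18.7-fold higher, adjusted p = 0.0926) and FGF10 (4.74, 0.0883) did not pass, and neither did FEZF1 (0.70), LHX2 (0.15), HESX1 (-0.03) or SIM1 (1.91). VAX2 overlaps ATP6V1B1 on the same strand. VAX1, FOXD1, OTP, HMX3 and POMC were too low to test. With the block 4 rose and 2 fell, against 21% of all genes higher and 25% lower in that fit. NKX2-1 and HMX2 both held without either 0.7 µM library, and neither held without either hPSC library.

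Among position markers further back, some diencephalic and midbrain genes rose. Of 11 diencephalic genes 4 rose and 0 fell (median 3.48, and 7 higher and 1 lower with the block), with FOXP2 at 19.9 and 19.4 CPM against 0.276 and 0.145 CPM in hPSC (6.50, standard error 0.58, adjusted p = 0.00217), IRX3 at 4.48 and IRX5 at 3.49. LHX9 rose as well, from few reads, 29 against 1 in hPSC (ratio 28.5, interval 4.72 to 1160). In the midbrain and midbrain-hindbrain boundary list 5 of 12 rose and 1 fell (median 1.34, and 5 higher and 3 lower with the block). OTX2, which marks forebrain and midbrain, had 90.9 and 133.7 CPM in the 0.7 µM cells against 18.5 and 21.8 CPM in hPSC (2.48, standard error 0.34, adjusted p = 0.00567), and OTX1 rose by 5.03. EN1, a midbrain factor, had 438 counts against 2 (ratio 215, interval 59.2 to 1780), PAX2 rose (4.72) and FGF8, the organizer's signal, had 190 counts against 2 (ratio 93.3, interval 25.5 to 776). EN2 fell, with 1 count against 84 in hPSC, of which nearly all were in replicate 1 (2.21 CPM against 0.145 CPM in replicate 2). None of the hindbrain genes rose, and GBX2 fell (-3.81), a call lost without 0.7 µM replicate 2 or either hPSC library. HOXA2, HOXB1, HOXA3 and HOXB3 had no count in either 0.7 µM library. Of 6 telencephalic genes 0 rose and 1, EMX1, fell (at least 66.8-fold lower, median of the list 2.81), a call lost with DESeq2 and when any 1 of the 4 libraries was left out. With the block 3 telencephalic genes rose and 2 fell. Without 0.7 µM replicate 1, replicate 2, hPSC replicate 1 and hPSC replicate 2 in turn, 3, 3, 1 and 1 of the 4 diencephalic calls and 4, 4, 2 and 1 of the 6 midbrain calls held.

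Neural progenitor genes rose broadly, 14 of 26 with 0 lower (median 2.66, and 20 higher and 1 lower with the block). VIM, the intermediate filament vimentin, had 5078.3 and 5114.6 CPM in the 0.7 µM cells against 137.1 and 54.5 CPM in hPSC (5.73, standard error 0.66, adjusted p = 0.00385). LRP2, the endocytic receptor megalin of the neuroepithelium, had 313.5 and 722.0 CPM against 7.28 and 4.39 CPM (6.47, 0.68, adjusted p = 0.00312). PAX6, a progenitor factor, had 11.5 and 8.4 CPM against 0.11 and 0.0363 CPM (6.95, 1.37, adjusted p = 0.0192). NR2F2 (6.03), ZBTB16 (5.07), DACH1 (4.65), MEIS1 (4.54), NR2F1 (4.20), MEIS2 (4.06), HES1 (3.36), SOX5 (2.81) and SOX11 (1.91) rose, and HES5 had 135 counts against 2 (ratio 66.3, interval 18 to 553). SOX1, which marks early neuroectoderm, did not pass (3.02, adjusted p = 0.057). Of the 14 calls, 9 held without 0.7 µM replicate 1, 12 without replicate 2, 7 without hPSC replicate 1 and 3 without hPSC replicate 2.

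Among genes of differentiated neurons 4 of 20 rose and 0 fell (median 1.31). MAP2 rose (3.13), with 176.6 and 280.3 CPM in the 0.7 µM cells against 36.5 and 15.6 CPM in hPSC, TUBB3, neuronal tubulin, rose by 2.26 on the log2 scale, ELAVL4 had 232 counts against 3 (ratio 76, interval 25.7 to 371) and NEUROG2 74 against 2. With the block 10 rose and 5 fell. Of the 4 calls, 2 held without 0.7 µM replicate 1, 1 without replicate 2, 1 without hPSC replicate 1 and 0 without hPSC replicate 2. Among 9 tested dopamine neuron genes, DDC, aromatic amino acid decarboxylase, rose (7.98, 41.0 and 17.3 CPM against 0.0827 and 0.145 CPM), as did DLK1 (6.88), while the GDNF receptor RET (-4.73) and ALDH1A1 (-4.16) fell. TH, the rate-limiting enzyme of dopamine synthesis, had 1 count against 10 and was not tested, and NR4A2 did not pass (-0.58). Of the 4, 3 held without each 0.7 µM library, 1 without hPSC replicate 1 and 0 without hPSC replicate 2. In the Notch list, 5 of 14 rose, the ligands DLL4 (4.98) and DLL1 (2.52), the effectors HES4 (4.28) and HEY1 (3.82), and MFNG (3.55), which modifies Notch receptors, and 2 fell, HEY2 (-4.01) and NRARP (-1.95). Of these 7, 5 held without each 0.7 µM library, 2 without hPSC replicate 1 and 1 without hPSC replicate 2. Of 16 axon guidance receptors 3 rose, DCC, the netrin receptor, with 38.5 and 96.7 CPM against 0.827 and 0.29 CPM in hPSC (6.89, standard error 1.04, adjusted p = 0.00822), NRP1 (2.95) and EPHB1 (1.78), and ROBO2, a SLIT receptor, fell (-3.65). Only DCC held without 0.7 µM replicate 1, all 4 without replicate 2, and 0 without either hPSC library. With the block 8 axon guidance receptors rose and 5 fell, 7 Notch genes rose and 3 fell, and 3 dopamine neuron genes rose and 4 fell. These counts, and those of the neuronal genes with the block, stand against 21% of all genes higher and 25% lower in that fit.

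**Figure D3:**
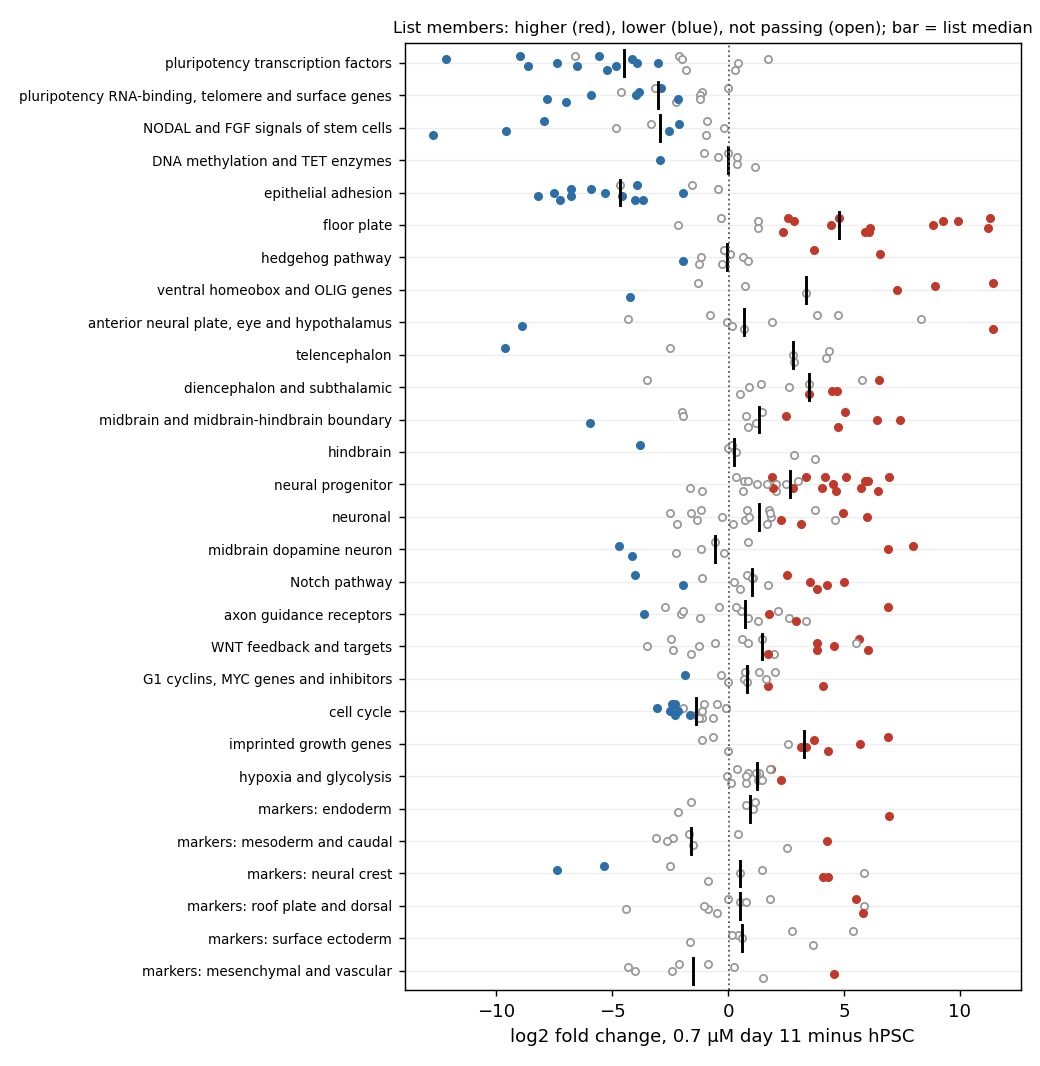
Log2 fold change, 0.7 µM day 11 minus hPSC, of every tested member of the 29 gene lists, 1 row per list; filled red points passed as higher, filled blue points as lower, open points did not pass, bars are list medians and the dotted line is the median of all genes (0.04). Points of genes with no count in a group are fitted values and no measure of size; the floor plate list has its median at 4.79 and the pluripotency factors at -4.48.

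WNT feedback and target genes were mixed, with 6 of 17 higher and 0 lower (median 1.44). With the block 9 rose and 5 fell, against 21% of all genes higher and 25% lower in that fit. Only 11 of the 17 had a positive log2 fold change, and the genes named in this paragraph are all among them. The log2 fold changes reached down to -3.49. Summed over the list, levels were lower in the 0.7 µM cells, 510.2 and 739.9 CPM against 1146.5 and 1270.0 CPM in hPSC. NKD1, a feedback inhibitor, had 82.3 and 112.3 CPM in the 0.7 µM cells against 6.2 and 7.25 CPM in hPSC (3.85, standard error 0.38, adjusted p = 0.0025). LEF1, the nuclear partner of beta-catenin, rose by 3.84 and ZNRF3, which removes WNT receptors, by 1.74. The antagonists WIF1 (6.04) and DKK1 (5.64) rose, DKK1 unevenly with 1.79 and 21.2 CPM against 0.303 and 0.145 CPM. SP5, a factor that WNT signalling induces directly, had 0.796 and 3.72 CPM in the 0.7 µM cells against 0.138 and 0.0363 CPM in hPSC (4.59, 0.88, adjusted p = 0.0171). AXIN2, the usual readout of the pathway, did not pass (1.44, adjusted p = 0.114), with 25.3 and 70.9 CPM against 18.3 and 17.1 CPM. Of the 6 calls, 6 held without 0.7 µM replicate 1, 5 without replicate 2, 2 without hPSC replicate 1 and 1 without hPSC replicate 2.

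The SP5 window is shown because TCF and LEF factors regulate this gene. The TCF/LEF site, searched as CTTTGAT on both strands, occurred in 2.62% of all windows, and in 1.52% of those of genes that rose against 1.42% of those of all tested genes. The window, chr2:170715087-170715386 on the plus strand, has 1 match at -109, in capitals:
SP5: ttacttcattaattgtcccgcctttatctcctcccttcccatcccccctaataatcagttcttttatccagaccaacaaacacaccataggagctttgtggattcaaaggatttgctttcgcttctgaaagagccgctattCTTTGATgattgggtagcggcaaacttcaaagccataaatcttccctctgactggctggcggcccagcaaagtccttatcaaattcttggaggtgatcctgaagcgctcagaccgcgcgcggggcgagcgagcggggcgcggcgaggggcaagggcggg

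Cell cycle genes fell in 7 of 17 cases and rose in 0 (median -1.38, and 14 lower with the block). MKI67, the Ki-67 antigen, had 74.0 and 109.5 CPM in the 0.7 µM cells against 496.3 and 500.4 CPM in hPSC (-2.44, standard error 0.36, adjusted p = 0.00749). The mitotic kinases BUB1 (-3.05), AURKA (-2.49) and CDK1 (-2.29), the cyclins CCNB1 (-2.31) and CCNA2 (-2.15), and MCM4 (-1.65), part of the replication helicase, fell. CCND2, cyclin D2, rose (1.70) and CCNE1 fell (-1.88), while CDKN1C, an imprinted inhibitor of cyclin kinases, rose by 4.09 on the log2 scale. They were the 3 of 11 G1 cyclins, MYC genes and inhibitors that passed, and the calls of CCND2 and CCNE1 were lost when any 1 of the 4 libraries was left out. Of the 7 cell cycle calls, 5 held without each 0.7 µM library and 0 without either hPSC library. Of the 10 tested imprinted growth genes 6 rose and 0 fell (median 3.26). H19 had 44.9 and 107.6 CPM against 2.15 and 0.725 CPM in hPSC (5.71, 0.79, adjusted p = 0.00619), and NNAT (4.33), MEG3 (3.72), IGF2 (3.36), PLAGL1 (3.16) and DLK1, given above, were the others. All 6 held without 0.7 µM replicate 1, 3 without replicate 2, 1 without hPSC replicate 1 and 0 without hPSC replicate 2. LDHA (2.26), ALDOA (1.83) and PGK1 (1.34), enzymes of glycolysis, were the 3 of 14 hypoxia and glycolysis genes that rose. Of these 1 held without 0.7 µM replicate 1 and 0 without any 1 of the other 3 libraries. With the block 6 hypoxia and glycolysis genes rose and 0 fell, and 4 G1 genes rose and 1 fell.

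Genes were also ranked by fitted log2 fold change, which is no measure of size for genes with no count in a group. The 15 largest rises so ranked, among genes with a mean of 10 CPM or more in the 0.7 µM cells, included 7 already described (NKX2-1, SHH, LINC00261, FOXA1, LMX1A, FOXA2 and DDC). RFX4, a transcription factor of the neural tube, was the steadiest of the rest, with 280.7 and 275.9 CPM in the 0.7 µM cells against 1.71 and 0.363 CPM in hPSC (8.05, standard error 0.77, adjusted p = 0.0025). The phospholipase PLCD4 (8.06) had 55.1 and 183.6 CPM against 0.386 and 0.508 CPM. SMCO3 had no count in hPSC and was at least 227-fold higher. TTC6 had a ratio of 830 (interval 229 to 6860). The proton pump subunits ATP6V0D2 (ratio 1440, interval 397 to 11900) and ATP6V1B1 (8.36) were also in this set. KRT77, a keratin, had 100.7 and 3.16 CPM, and TTR, the thyroid hormone carrier transthyretin, 28.2 and 2.99 CPM, each with 2 counts or fewer in hPSC. Both of these were far higher in 0.7 µM replicate 1 than in replicate 2, which held 142 counts of KRT77 and 134 of TTR, still above hPSC. Neither passed without replicate 1 of the 0.7 µM cells (nor without either hPSC library).

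The 15 largest falls, ranked in the same way, included TDGF1 and NANOG, described above, and copies of stem cell genes. LINC00678, a long noncoding RNA, had no count in the 0.7 µM cells against 96.8 and 147.4 CPM in hPSC, at least 2570-fold lower (adjusted p = 0.00295). PLA2G2A, a secreted phospholipase, had 1 count in the 0.7 µM group (ratio 1970 in favour of hPSC, interval 352 to 77700). GABRP, a subunit of the GABA-A receptor, was at least 234-fold lower, and TRBC2, the constant region of the T cell receptor beta chain, at least 226-fold lower. TDGF1P3, NANOGP8 and POU5F1P3 are copies of TDGF1, NANOG and POU5F1, and reads can be shared between a copy and its parent, so the split between them is uncertain. The remaining 6, RP4-792G4.2, RP11-69I8.2, RP11-256I9.2, RP11-562F9.2, AP000688.29 and RP11-132A1.3, carry clone-based names, and RP4-792G4.2 overlaps FOXD3 on the opposite strand. LINC00678, RP11-69I8.2, PLA2G2A and POU5F1P3 passed without each of the 4 libraries in turn, and the other named genes of this paragraph, TDGF1 and POU5F1 aside, did not pass without hPSC replicate 2.

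Over 6 lists of markers of other tissues, 48 genes were tested, 7 (14.6%) rose and 2 (4.17%) fell, against 5.31% and 6.12% of all genes. Of 6 tested endoderm markers 1 rose, the chemokine receptor CXCR4 (89.0 and 98.2 CPM against 0.827 and 0.689 CPM in hPSC), which neural cells also use, while GATA4 and HNF4A had no count in the 0.7 µM cells and SOX17 had 1. FOXA1 and FOXA2, which rose, were counted as floor plate genes, and neither they nor TTR were in the endoderm list. In the mesoderm and caudal list 1 of 8 rose, GSC (86 counts against 4), and the list summed to 2.5 and 2.2 CPM against 3.1 and 2.4 CPM, with MSGN1, CDX2 and HAND1 at 0. Neural crest markers gave 2 higher, TWIST1 (4.29) and NGFR (4.10, 302.8 and 300.3 CPM against 17.9 and 17.2 CPM), and 2 lower, ERBB3 (-5.34) and FOXD3, among 9 tested. SOX10, the defining crest factor, had 0 and 0.379 CPM against 1.27 and 1.16 CPM in hPSC. Of 11 roof plate and dorsal genes MSX1 (5.81) and RSPO2 (5.53) rose, and PAX7 (-0.89) and ZIC1 (-0.02) did not pass. Surface ectoderm gave 0 of 7, with KRT14 at 0, and mesenchymal and vascular genes 1 of 8, LUM (4.56). The surface ectoderm list summed to 760.8 and 2166.8 CPM in the 0.7 µM cells against 766.0 and 633.8 CPM in hPSC, the excess lying in replicate 2. The mesenchymal and vascular list summed to 68.1 and 303.3 CPM in the 0.7 µM cells against 461.1 and 475.5 CPM in hPSC. Without hPSC replicate 2, CXCR4 and RSPO2 were the calls of these lists that held. The part of other cell types in the results above was not tested.

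The last comparison asked where the 0.7 µM cells differed from the other day 11 cultures, using the 8 day 11 libraries alone and the mean of the 3, 5 and 7.5 µM arms. Without the block 0 of 18709 genes passed with edgeR (744 at an unadjusted p under 0.05, and 197 with DESeq2). With the block 416 (2.22%) passed, 234 (1.25%) higher and 182 (0.973%) lower at 0.7 µM, and what follows refers to that fit. The blocked count was 44 without 0.7 µM replicate 1 and 231 without replicate 2, 259 without 5 µM replicate 1, and 1089 and 1319 without 7.5 µM replicate 1 and replicate 2. Of 16 floor plate genes tested, 6 were higher at 0.7 µM and 0 lower (median 0.88, against -0.04 for all genes). SHH had 284.5 and 52.6 CPM at 0.7 µM, 53.6 and 19.2 at 3 µM, 17.2 and 12.7 at 5 µM, and 20.5 and 28.1 at 7.5 µM (log2 fold change 2.55, adjusted p = 0.0122). CORIN (3.23), CMTM8 (2.10), NTN1 (1.96), SPON1 (1.48) and SLIT2 (0.90) were the other 5. FOXA2, with 215.6 and 72.3 CPM at 0.7 µM and 53.0 to 128.8 CPM in the other arms, did not pass (adjusted p = 0.313), and neither did FOXA1 (0.262), LMX1A (0.835) or LMX1B (0.964).

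NKX2-1 had 13.7 and 8.67 CPM at 0.7 µM, 0.593 and 0.891 at 3 µM, 0.174 and 0.249 at 5 µM, and 0 and 0.109 at 7.5 µM (5.73, adjusted p = 0.000354). It did not overlap any other arm. NKX2-2 (3.59), HHIP (3.89), FEZF2 (5.55) and FEZF1 (2.77) were higher at 0.7 µM too. PTCH1 did not pass (adjusted p = 0.709). PAX6 (3.77), LRP2 (1.97), FABP7 (1.77), the netrin receptor DCC (3.95), the ephrin receptors EPHA3 (1.83) and EPHA7 (1.75), DLK1 (1.56), the GDNF co-receptor GFRA1 (2.65), DBX1 (2.34), TCF7L2 (1.56) and DCX (1.08) were higher as well. Midbrain and boundary genes went the other way, 5 of 12 lower and 0 higher, such as EN1 (-2.82, with 3.43 and 8.22 CPM at 0.7 µM and 12.3 to 116.1 CPM in the other arms) and FGF17 (-4.20). So did 8 of 17 WNT genes, such as SP5 (-5.03, with 0.796 and 3.72 CPM at 0.7 µM and 37.3 to 137.4 CPM elsewhere), NOTUM (-5.78) and AXIN2 (-2.13), while SFRP1 was higher (1.23). Of 14 tested pluripotency factors 0 passed in either direction. The comparison against hPSC and this one share the 0.7 µM libraries, so their values are not independent.

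**Figure D4:**
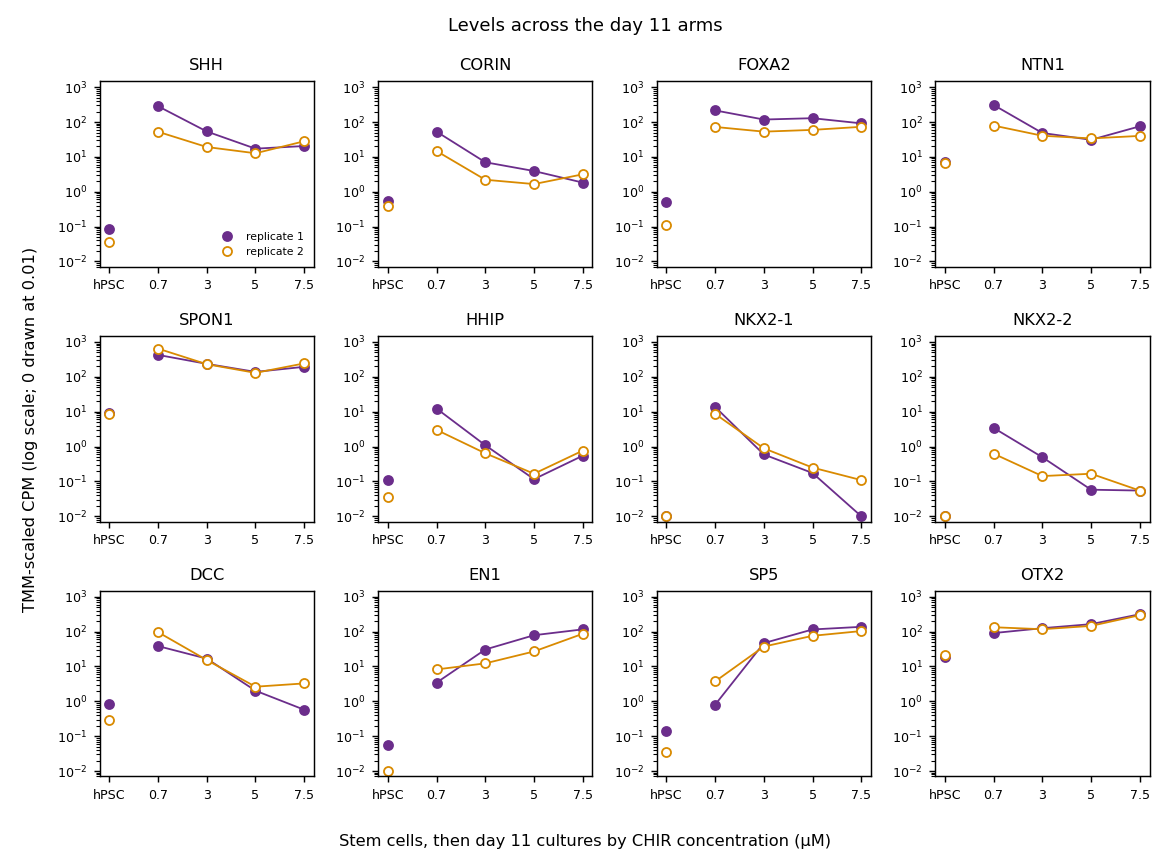
TMM-scaled CPM (log axis, 0 drawn at 0.01) of 12 genes in hPSC and in the 4 day 11 arms in order of CHIR99021 concentration (µM); filled points are replicate 1, open points replicate 2, and lines join the day 11 libraries of 1 replicate number. NKX2-1 lies at 13.7 and 8.67 CPM at 0.7 µM and at 0.891 CPM or less elsewhere, while SP5 and EN1 are higher in each of the other arms.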

How the data were processed

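Total RNA of 14 libraries was sequenced, and the 10 of hPSC and day 11 entered the fits. The submitters' processing notes name DESeq2 1.12.4, HTSeq 0.5.3, featureCounts 1.4.2 and STAR 2.4.2a, and the build hg19. The deposited tables hold the authors' unnormalized read counts per gene. Neither library kit nor strandedness is stated in the labels or file headers. The summary rows, 37.41 to 44.33% of each column, were dropped.

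Counts were tested with edgeR 4.0.16 (R 4.3.3, limma 3.58.1; TMM scaling, filterByExpr, robust quasi-likelihood fit, Benjamini-Hochberg threshold 0.05). The fit against hPSC shared 1 spread over 10 libraries, and that against the other arms used 8. CPM are TMM-scaled. Where a group had 0 counts, a bound was taken at 3 counts over the group. With 1 to 3 counts a ratio with its 95% interval is given. Intervals and floors cover counting error only.

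Within day 11, replicate numbers pair the libraries: deviations of same-numbered libraries correlated at 0.62 to 0.83 in all 6 pairs of arms. The sample descriptions carry 1 code for all day 11 replicate 1 libraries, another for replicate 2, and 1 for each hPSC library, so code and group cannot be told apart. No label says that replicates were separate cultures, so p-values measure the spread between these libraries, which may be technical. With a block they measure only the spread left after the shared replicate difference is taken out. In a fit without 1 library, the lone library left in its group is assumed to vary like the other groups.

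Named genes were the 15 largest fitted changes in each direction whose libraries did not overlap and whose higher group averaged at least 10 CPM. They also included up to 6 passing members of each list in each direction, and every member of the main lists. A few further members that did or did not pass are named where a result turns on them, chosen after their values were seen. Some listed genes are not reported here and were left out of the lists and rankings, though not of the fits. Members and lists were chosen with earlier results of these data known. Exon overlaps came from GENCODE 29, in which 51812 of 57445 gene entries were found, and for 2 listed symbols with several entries the entry with most counts was used. The alternatives were RLE scaling, no filter, DESeq2 1.42.0, the 4 libraries alone, protein-coding genes alone, replicate blocks and leaving out each library.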

Additional observations from a re-analysis of the deposited data

Results flagged for a closer look

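The values here are log2 fold changes of the 0.7 µM arm over the mean of the other day 11 arms, in the fit with the replicate block. They were picked out because the change from hPSC differed between arms by that test, and none passed without the block. Floor plate and hedgehog genes higher at 0.7 µM were CORIN (3.23), SHH (2.55), CMTM8 (2.10), NTN1 (1.96), SPON1 (1.48), SLIT2 (0.90) and HHIP (3.89). Ventral and anterior genes higher were NKX2-1 (5.73), NKX2-2 (3.59), FEZF2 (5.55) and FEZF1 (2.77). Diencephalic, progenitor, neuronal and dopamine genes higher were DBX1 (2.34), TCF7L2 (1.56), PAX6 (3.77), LRP2 (1.97), FABP7 (1.77), DCX (1.08), GFRA1 (2.65) and DLK1 (1.56). The guidance receptors DCC (3.95), EPHA3 (1.83) and EPHA7 (1.75), the WNT antagonist SFRP1 (1.23) and CDH1 (1.95) were also higher.

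Position markers lower at 0.7 µM were FGF17 (-4.20), EN1 (-2.82), PAX5 (-2.71), PAX2 (-1.46), OTX1 (-0.89), IRX1 (-1.85) and DLX5 (-2.38). WNT genes lower were NOTUM (-5.78), SP5 (-5.03), LGR5 (-4.18), DKK1 (-3.73), APCDD1 (-2.75), NKD1 (-2.26), AXIN2 (-2.13) and LEF1 (-2.06). DACH1 (-1.03), INA (-0.98) and ALPL (-1.28) were lower too.

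In 18 listed genes both 0.7 µM libraries lay above both hPSC libraries and both libraries of another arm below, or the reverse. This pattern was not itself tested, and no share over all genes is given for it. The 0.7 µM and hPSC libraries alone did not overlap for 59.1% of all genes. The number 18 is therefore no result about the listed genes. Of the 18, FEZF2, GFRA1 and LGR5 are given above. CDX2 (-9.93) and T (-7.47), mesoderm and caudal markers with at most 1 count in the 0.7 µM group, also passed against the mean of the other arms, and their fitted values are no measure of size. The other 13 did not pass, with adjusted p of 0.058 to 0.924 (edgeR). Their values were GLI3 -1.04, BOC 0.52, DISP1 -0.90, EN2 -4.02, CNPY1 -1.91, SPRY1 -1.53, POU3F1 0.89, PBX3 0.69, ELAVL2 -0.80, MYC 1.12, CCND3 0.13, EOMES -3.06 and WNT3A -5.45. EN2, EOMES and WNT3A again had at most 1 count in the 0.7 µM group, so that their fitted values are no measure of size.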

How the results depend on the processing

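The count of genes called against hPSC, 2248, was 2241 with RLE scaling, 2298 without a filter and 2103 over protein-coding genes. It was 4400 with DESeq2, 1143 with the 4 libraries alone, and 115 to 1590 when 1 library was left out, lowest without hPSC replicate 2. The replicate block over all 10 libraries gave 5282, the block within day 11 gave 9064, and the crossed block, hPSC numbers exchanged, gave 6051. Against the other arms 0 genes passed, also with RLE scaling and in all 8 fits without 1 library. There were 23 without a filter, 197 with DESeq2 and 416 with the replicate block. With the block the count, in fits chosen after the data were seen, was 44 and 231 without 0.7 µM replicate 1 and 2, 405 and 312 without 3 µM, 259 and 339 without 5 µM, and 1089 and 1319 without 7.5 µM replicate 1 and 2. Of 156 passing named genes, 3 were lost with DESeq2, 1 with RLE scaling, 5 without a filter, 45 with the 4 libraries alone, 1 over protein-coding genes, 0 under any block, 46 and 30 without 0.7 µM replicate 1 and 2, and 102 and 125 without hPSC replicate 1 and 2. Genes that a fit did not test are left out of these counts, such as LINC00261, SPON1 and DACH1 over protein-coding genes, where they had no call. None of the named genes that passed changed sign in the fits that tested them. The median of all genes moved to -0.11 under the replicate block and -0.149 without 0.7 µM replicate 2. The cause of these differences was not tested. With 2 libraries a group, genes at a few counts in 1 group, such as NKX2-2, rest on little.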
